A study of Mus musculus with 8 samples.

Results

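The lysosomal cathepsins, proteases of the compartment in which cells break down proteins, were followed in embryo propers of Runx1 knockout mice and of wild-type mice. The genes were 9 (Ctsa, Ctsb, Ctsc, Ctsd, Ctsh, Ctsk, Ctsl, Ctss and Ctsz) of 18193 genes named on the array. They had 20 of the 45037 probe sets tested. Each gene was described by the probe set with the highest mean over all 8 arrays, and its other probe sets served as a check. RNA came from 4 groups of 2 arrays each: Runx1 knockout and wild type at embryonic day 12 (E12), and Runx1 knockout and wild type at embryonic day 8.5 (E8.5). All embryos were on a BALB/c background, and neither group carried another listed allele or treatment. Values are log2 intensities from Affymetrix mouse arrays, on which a difference of 1 is a doubling. Replicates were described as biological ones, whether embryos were pooled is not given in the sources used here, and p-values measure only the spread between these samples. In RNA of a whole embryo, fewer cells of a type and less RNA per cell cannot be told apart. An array also gives no scale on which levels of different genes can be ranked, so each gene was compared only with itself.

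Cathepsins are made as inactive precursors, sorted to lysosomes by mannose 6-phosphate receptors and activated there by acid and by other proteases. Most are cysteine proteases (Ctsb, Ctsc, Ctsh, Ctsk, Ctsl, Ctss and Ctsz), while Ctsd is an aspartic protease and Ctsa a serine carboxypeptidase. Some are made by nearly all cells, and others mark certain cells, with Ctss known from macrophages and other antigen-presenting cells and Ctsk from osteoclasts. In the rodent conceptus the visceral endoderm of the yolk sac is known for taking up proteins and degrading them in lysosomes. Runx1 encodes a DNA-binding regulator without which definitive haematopoiesis does not take place in the mouse.

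The targeted gene did not check the labels. The brightest of 6 Runx1 probe sets read 7.10 and 6.86 in E12 knockout, against 7.06 and 6.39 in E12 wild type. At E8.5 it read 6.41 and 6.86 in knockout, against 6.16 and 5.95 in wild type. Knockout differences over the 6 probe sets were -0.23 to 0.26 at E12 and 0.07 to 1.03 at E8.5, and the limma fit called none. Where these probe sets lie relative to the deleted part of the gene is not given in the sources used here. Several facts of the arrays touch the cathepsins. The upper end of the distribution (99th percentile) was 10.51 to 11.09 at E12 and 12.24 to 12.3 at E8.5, so a level compared across stages rests on a scaling that is not known. Markers of yolk sac endoderm averaged 6.81 to 7.09 at E12 and 11.75 to 12.61 at E8.5 over 9 of 10 listed genes, although the label at both stages is embryo proper. Markers of trophoblast (6 of 10 listed genes) averaged 9.39 in E8.5 wild-type replicate 1, against 5.56 to 6.01 on the other E8.5 arrays and 4.90 to 5.10 at E12.

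Promoters of 7 of the 9 cathepsins were at hand from RefSeq (GRCm38.p6), each 300 bases long and beginning 250 bases before the start of transcription. The 3 below are shown because Ctss carried the difference between genotypes, and because Ctsa and Ctsd held the E-box of lysosomal genes, the letters CACGTG that TFEB and related factors bind. In the Ctss window, capitals mark GAAA, 2 bases of any kind and GAAA, a core of interferon response elements, and GAGGAAGT, a form of the PU.1 site read here on the opposite strand. In the Ctsa and Ctsd windows capitals mark CACGTG.
Ctss, chr3:95526536-95526835, plus strand: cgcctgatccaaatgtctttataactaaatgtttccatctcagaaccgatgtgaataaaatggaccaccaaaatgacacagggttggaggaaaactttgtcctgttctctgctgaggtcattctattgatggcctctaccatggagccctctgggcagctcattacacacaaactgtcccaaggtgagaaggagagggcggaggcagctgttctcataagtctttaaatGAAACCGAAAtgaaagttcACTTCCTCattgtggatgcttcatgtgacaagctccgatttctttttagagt
Ctsa, chr2:164833523-164833822, plus strand: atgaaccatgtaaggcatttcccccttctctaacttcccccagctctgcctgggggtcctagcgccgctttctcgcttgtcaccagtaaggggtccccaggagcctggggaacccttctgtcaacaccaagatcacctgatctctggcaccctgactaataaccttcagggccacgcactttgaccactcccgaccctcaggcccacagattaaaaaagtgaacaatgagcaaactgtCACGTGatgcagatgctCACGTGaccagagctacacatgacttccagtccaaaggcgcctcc
Ctsd, chr7:142387778-142388077, minus strand: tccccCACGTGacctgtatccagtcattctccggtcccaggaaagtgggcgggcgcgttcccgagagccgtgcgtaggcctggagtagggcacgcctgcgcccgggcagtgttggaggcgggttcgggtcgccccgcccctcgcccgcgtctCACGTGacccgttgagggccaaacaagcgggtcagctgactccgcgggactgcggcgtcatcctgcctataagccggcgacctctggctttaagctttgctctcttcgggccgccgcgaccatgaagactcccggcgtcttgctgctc
The Ctss window held the interferon response core at position 230 and GAGGAAGT at position 249, counted from 1 at its 5′ end. Over 32851 windows of this length, searched on both strands, 3.44% held that core and 3.2% held GAGGAAGT. The Ctsa window held CACGTG at positions 239 and 256 and the Ctsd window at 6 and 153. CACGTG was found in 7.15% of windows, and its longer form TCACGTGA, which holds the shorter one, in 0.974%. Both Ctsa copies and the Ctsd copy at 153 had the longer form. Ctsl held CACGTG at position 15 and Ctsc held GAGGAAGT at position 100. The letters TGTGGT or TGCGGT, which RUNX proteins bind, were in 22.4% of windows and in 1 window of a cathepsin, an upstream start of Ctsa. These matches describe letters and not sites in use.

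**Figure D1:**
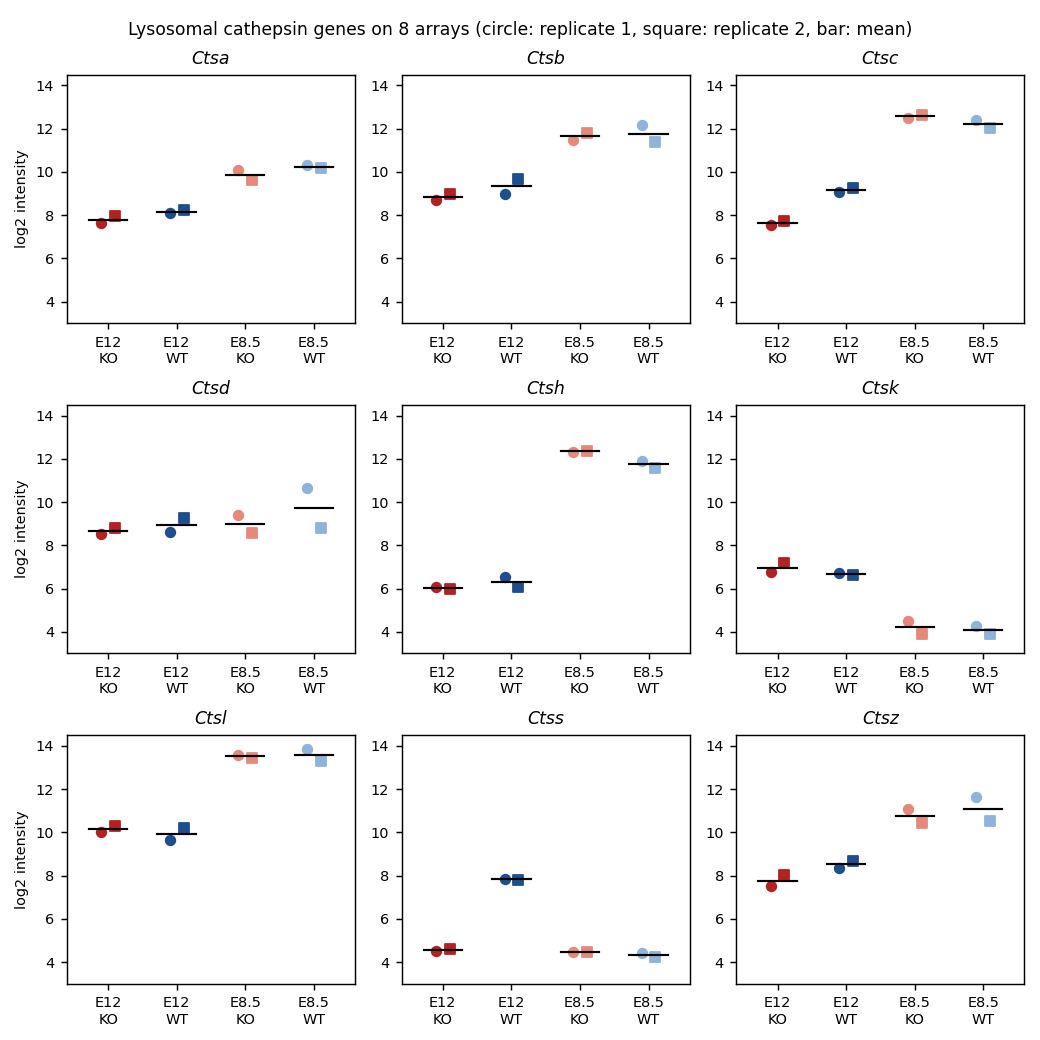
Log2 intensity (vertical axis) of the 9 cathepsin genes on the 8 arrays, by group (horizontal axis: E12 knockout, E12 wild type, E8.5 knockout, E8.5 wild type). Circles are replicate 1, squares replicate 2 and bars the mean. Ctss lay at 4.22 to 4.59 on 6 arrays, E12 knockout included, and at 7.86 and 7.80 on both E12 wild-type arrays.

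Ctss, the endopeptidase that antigen-presenting cells use to cut the invariant chain of MHC class II, set the genotypes apart at E12. It read 4.50 and 4.59 in E12 knockout, against 7.86 and 7.80 in E12 wild type. At E8.5 it read 4.46 and 4.47 in knockout and 4.43 and 4.22 in wild type. E12 wild type was thus the highest of the 4 groups, and the other 3, at 4.22 to 4.59, had no order beyond their spread. The E12 knockout difference was -3.29 (SE 0.15, a 9.76-fold fall, limma adjusted p = 0.00537). Within replicate numbers it was -3.36 and -3.21. Ctss has 1 probe set, and no detection calls were used here, so whether 4.5 differs from background is not known.

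Between the genotypes at E12 the Ctss value moved with markers of several blood cells, macrophages, megakaryocytes and granulocytes among them. Macrophage markers averaged 5.13 and 5.06 in E12 knockout and 5.93 and 5.73 in E12 wild type, over 22 of 22 listed genes. At E8.5 the same mean was 4.79 and 4.83 in knockout and 4.88 and 4.78 in wild type. Of the 22 genes, 20 were on the lower side in E12 knockout and 9 passed an absolute moderated t of 3, the threshold of the study's methods, with no correction for multiple testing. Over all genes 48.8% were on the higher side, and 0.655% of all probe sets passed that threshold. None of the 22 was called at an adjusted p below 0.05 by limma. Examples were Fcgr3, an Fc receptor (-2.17, SE 0.27), Tyrobp, a signalling adaptor (-1.28, SE 0.16), and C1qc, a complement subunit (-1.50, SE 0.19), each with limma adjusted p = 0.352. Other genes of the list had smaller differences: Cd68 by -0.34 (SE 0.30), Aif1 by -0.15 (SE 0.16), Itgam by 0.05 (SE 0.16) and Ptprc by -0.16 (SE 0.16). They were dim in E12 wild type too, at 4.47 and 4.48 (Cd68), 4.50 and 4.65 (Aif1), 3.84 and 3.57 (Itgam) and 4.69 and 4.75 (Ptprc). Such low levels leave little room to see a fall in those genes. Not all genes with small differences were dim. Laptm5 read 8.66 and 8.58 in E12 knockout and 8.88 and 8.69 in E12 wild type. Trem2 read 6.34 and 6.29 in E12 knockout and 6.43 and 6.25 in E12 wild type. Markers of megakaryocytes and platelets averaged 5.08 and 5.05 in E12 knockout and 7.09 and 6.96 in E12 wild type. All 10 were on the lower side (median -1.47, beside -0.69 for macrophage markers), 6 passed the t threshold and 3 were called by limma, Pf4, Ppbp and Tubb1. Pf4, platelet factor 4, read 4.86 and 4.82 in E12 knockout, against 10.31 and 10.79 in E12 wild type (-5.71, SE 0.20, limma adjusted p = 0.00176). Of 12 measured markers of granulocytes and mast cells, 11 were on the lower side (median -0.43), 3 passed the t threshold and none was called, with Mpo at -3.18 (SE 0.26, limma adjusted p = 0.0553). Red cell markers had a median of -0.03, with 4 of 8 on the lower side. The part of any of these cells in the Ctss value was not tested.

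Ctsc, the dipeptidyl peptidase that activates granule serine proteases, followed at E12. It read 7.56 and 7.73 in E12 knockout, against 9.09 and 9.27 in E12 wild type, with no overlap. The difference was -1.54 (SE 0.19, 2.91-fold lower, t = -8.17) and was the same within replicate numbers, -1.54 and -1.55. It passed the t threshold and not the adjusted one (limma adjusted p = 0.352). The alternatives gave adjusted p-values of 0.109 to 1. Both other Ctsc probe sets were dim, with E12 differences of -0.08 (SE 0.15) and -0.02 (SE 0.19), so the value rests on 1 probe set, and the mean over all 3 was -0.55. Among 9 serine proteases that Ctsc activates, 6 were on the lower side in E12 knockout, none was called and the median was -0.18. Prtn3, proteinase 3 of granulocytes, passed the t threshold (5.05 and 5.11 in E12 knockout, 6.24 and 5.71 in E12 wild type, difference -0.89, SE 0.23).

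The other 7 cathepsins were not called at E12. Ctsz, a carboxypeptidase, read 7.52 and 8.01 in E12 knockout and 8.35 and 8.68 in E12 wild type (-0.75, SE 0.42). Its other 2 probe sets gave -0.58 (SE 0.40) and -0.56 (SE 0.32). Ctsa, which stabilizes neuraminidase and beta-galactosidase, read 7.62 and 7.96 in E12 knockout and 8.10 and 8.22 in E12 wild type (-0.37, SE 0.22). Its dim second probe set gave 0.03 (SE 0.17). Ctsz and Ctsa had knockout arrays below both wild-type arrays, and the fit did not separate their differences from the spread. Ctsb, a broad endopeptidase, read 8.72 and 8.99 in knockout and 8.98 and 9.68 in wild type (-0.48, SE 0.34), and the groups overlapped. Ctsd gave -0.28 (SE 0.62) and Ctsh -0.26 (SE 0.21). Ctsl, an endopeptidase of most tissues, gave 0.22 (SE 0.28), and Ctsk gave 0.30 (SE 0.27) with both knockout arrays above both wild-type arrays.

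In all, 1 of the 9 cathepsins was called at E12, where 0.0133% of all probe sets were called (6 probe sets, all lower). Past the t threshold were 2, Ctss and Ctsc, against 0.655% of all probe sets. Knockout arrays lay below both wild-type arrays for 4 (Ctsa, Ctsc, Ctss and Ctsz), against 15.8% of all probe sets, and above for 1 (Ctsk), against 12.6%. The median difference of the 9 genes was -0.37, beside 0.01 over all probe sets. The Ctss call ended when either E8.5 knockout array (adjusted p = 0.0682 each), either E12 wild-type array (0.146 and 0.0948 without replicate 1 and 2) or either E12 knockout array (0.272 and 0.236 without replicate 1 and 2) was left out, and when replicate number was a block within each stage (0.147). The difference itself stayed between -3.33 and -3.24 in the fits with an array left out.

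At E8.5 none of the 9 cathepsins was called by limma, and 0% of all probe sets were. At an unadjusted p below 0.05 there was 1 cathepsin, against 4.73% of all probe sets, and none passed the t threshold, against 2.06%. That gene was Ctsh, an aminopeptidase, at 12.33 and 12.37 in E8.5 knockout and 11.92 and 11.59 in E8.5 wild type (0.60, SE 0.21, unadjusted p = 0.0273, limma adjusted p = 1). Its other probe set gave 0.48 (SE 0.27). Ctsc read 12.51 and 12.64 in knockout and 12.42 and 12.04 in wild type (0.35, SE 0.19). Its dim other probe sets gave -0.13 (SE 0.15) and -0.19 (SE 0.19). Ctsh, Ctsc and Ctss (0.14, SE 0.15) were the 3 genes whose knockout arrays lay above both wild-type arrays, against 13.2% of all probe sets. Ctsa was the 1 gene with knockout arrays below, at 10.09 and 9.61 against 10.31 and 10.18 in wild type (-0.39, SE 0.22), where 16.1% of all probe sets were. The dim second Ctsa probe set gave 0.22 (SE 0.17), with knockout arrays above both wild-type arrays.

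The E8.5 differences of 4 further genes changed sign without wild-type replicate 1, the array with high trophoblast markers. Ctsd, the main aspartic protease of lysosomes, read 9.41 and 8.56 in knockout and 10.67 and 8.81 in wild type (-0.75, SE 0.62), and without that array the difference was 0.18. Ctsz read 11.09 and 10.41 in knockout and 11.65 and 10.52 in wild type (-0.34, SE 0.42, and 0.23 without the array). Ctsb read 11.49 and 11.82 in knockout and 12.16 and 11.38 in wild type (-0.11, SE 0.34, 0.27 without it, and 0.05 without knockout replicate 1). Ctsl read 13.58 and 13.44 in knockout and 13.87 and 13.31 in wild type (-0.08, SE 0.28, and 0.20 without it). All 4 genes were thus highest on the same wild-type array. The median of the 9 differences was -0.08, beside -0.02 over all probe sets, and 0.24 without the array. Ctsk gave 0.13 (SE 0.27), and its sign turned without wild-type replicate 2 (-0.07) or knockout replicate 1 (-0.17). A dimmer Ctsb probe set gave -1.10 (SE 0.15, t = -7.51) with limma adjusted p = 0.843. All 5 Ctsb probe sets had differences below 0 at both stages, from -0.67 to -0.28 at E12 and from -1.10 to -0.11 at E8.5.

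**Figure D2:**
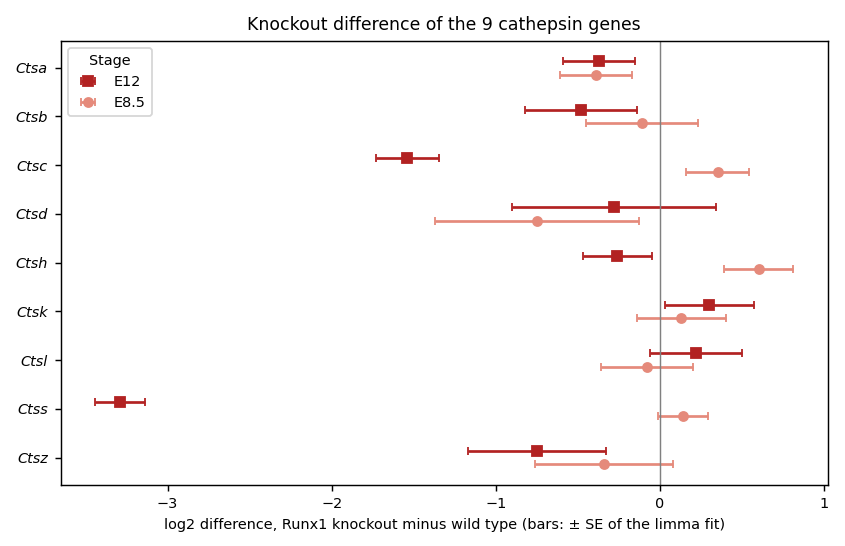
Difference in log2 intensity between Runx1 knockout and wild type (horizontal axis) for each cathepsin gene (vertical axis), with squares for E12, circles for E8.5 and bars for the SE of the limma fit. Ctss at -3.29 and Ctsc at -1.54 stand apart at E12, and the E8.5 differences run from -0.75 to 0.60.

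The knockout difference of Ctss was not the same at both stages. E12 minus E8.5, it was -3.43 (SE 0.21, t = -16.07, limma adjusted p = 0.0381), 1 of the 9 cathepsins called, where 0.00444% of all probe sets were. Over the alternatives its adjusted p ran from 0.0025 to 0.829. Ctsc gave -1.89 (SE 0.27, t = -7.07) with limma adjusted p = 1, and Ctsh -0.86 (SE 0.30, adjusted p = 1). The dim other Ctsc probe sets gave 0.05 (SE 0.22) and 0.17 (SE 0.27), and the mean over all Ctsc probe sets gave -0.56. Ctss and Ctsc were the 2 members past the t threshold, against 0.688% of all probe sets. For the other 6 genes the change of the knockout difference was -0.41 to 0.47. A dimmer Ctsb probe set passed the t threshold in the other direction (0.82, SE 0.21, t = 3.95).

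The stages differed far more than the genotypes. Of the 9 cathepsins, 7 were called between E12 and E8.5 in knockout (1 higher, 6 lower at E12), where 25.6% of all probe sets were called (11.6% higher, 14.1% lower). In wild type 8 were called (2 higher, 6 lower), where 27.8% of all probe sets were (12.1% higher, 15.7% lower). Medians of the 9 stage differences were -2.80 in knockout and -2.44 in wild type, beside 0.03 and -0.01 over all probe sets. These comparisons use the same arrays as the knockout comparisons. Since the scaling across stages is not known, each difference is followed by its value after quantile normalization over the 8 arrays, which gave calls for as many members in each genotype and moved the medians to -1.67 in knockout and -1.24 in wild type. Of all calls in knockout 45.1% were higher at E12, against 52.5% after quantile normalization and 28.3% after each array was centred on its median, and in wild type 43.6%, against 53.8% and 29.5%. No cathepsin called between the stages changed direction under these scalings.

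The 6 genes that fell between the stages did so in both genotypes. Ctsh read 6.09 and 5.97 in E12 knockout and 12.33 and 12.37 in E8.5 knockout, a difference of -6.32 (SE 0.21, 79.7-fold, limma adjusted p = 1.51e-04, quantile -5.58). In wild type it read 6.53 and 6.06 at E12 and 11.92 and 11.59 at E8.5 (-5.46, SE 0.21, adjusted p = 2.45e-04, quantile -4.68). Its second probe set gave -5.88 in knockout and -5.03 in wild type. Ctsh had the widest range of the 9 genes, and its E12 groups overlapped.

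Ctsc fell by 4.93 in knockout (SE 0.19, limma adjusted p = 2.17e-04, quantile -3.87) and by 3.05 in wild type (SE 0.19, adjusted p = 7.70e-04, quantile -1.75). The E12 wild-type arrays thus lay between the E12 knockout arrays and both E8.5 groups. The dim other Ctsc probe sets gave -0.64 and -0.42 in knockout and -0.69 and -0.59 in wild type. The size of the Ctsc fall thus rests on the brightest probe set. Ctsl read 10.01 and 10.27 in E12 knockout and 13.58 and 13.44 in E8.5 knockout (-3.37, SE 0.28, adjusted p = 0.00127, quantile -2.00). In wild type it read 9.62 and 10.22 at E12 and 13.87 and 13.31 at E8.5 (-3.67, SE 0.28, adjusted p = 0.00106, quantile -2.31). A dim second Ctsl probe set gave 0.28 in knockout and 0.44 in wild type and passed no adjusted threshold.

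Ctsb fell by 2.80 in knockout (SE 0.34, adjusted p = 0.00351, quantile -1.67) and by 2.44 in wild type (SE 0.34, adjusted p = 0.00468, quantile -1.24). Its 4 other probe sets gave -1.96 to -0.27 in knockout and -2.00 to -0.29 in wild type. Ctsz fell by 2.98 in knockout (SE 0.42, adjusted p = 0.00519, quantile -2.09) and by 2.57 in wild type (SE 0.42, adjusted p = 0.00738, quantile -1.52), and both its other probe sets were called lower in each genotype. Ctsa fell by 2.06 in knockout (SE 0.22, adjusted p = 0.00243, quantile -1.27) and fell by 2.09 in wild type (SE 0.22, adjusted p = 0.00231, quantile -1.14), and its dim second probe set gave -0.07 and 0.12. With the wild-type arrays fitted alone, Ctsb (limma adjusted p = 0.054) and Ctsz (0.056) lost the call.

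Markers of yolk sac endoderm moved with these 6 genes. Of 9 measured, 9 were called lower at E12 in knockout (median -5.02) and 8 in wild type (median -4.76), against 14.1% and 15.7% of all probe sets. Among them was Cubn, the receptor cubilin (-9.23 in knockout, -9.04 in wild type). The part of yolk sac tissue in the stage differences of the cathepsins was not tested.

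Ctsk, the collagen-degrading cathepsin of osteoclasts, rose at E12 in both genotypes. It read 6.76 and 7.19 in E12 knockout and 4.51 and 3.92 in E8.5 knockout (2.76, SE 0.27, 6.77-fold, limma adjusted p = 0.00203, quantile 2.90). In wild type it read 6.74 and 6.62 at E12 and 4.28 and 3.89 at E8.5 (2.59, SE 0.27, adjusted p = 0.00227, quantile 2.69). The fit did not separate the E12 groups from each other. Osteoclast markers did not share a shift of that size, with medians of 0.31 in knockout and 0.23 in wild type. Called higher were 2 of 9 in knockout and 1 of 9 in wild type. Markers of mesenchyme and cartilage gave medians of 2.90 in knockout (6 of 9 called higher) and 2.77 in wild type (5 of 9). Over all probe sets 11.6% were called higher in knockout and 12.1% in wild type. Dcn, the matrix proteoglycan decorin, rose by 4.34 in knockout and 3.81 in wild type. The part of either tissue in the Ctsk value was not tested.

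Ctss and Ctsd were the exceptions among the 9 genes. Ctss rose in wild type by 3.51 (SE 0.15, 11.4-fold, limma adjusted p = 2.95e-04, quantile 3.78), while in knockout its difference was 0.08 (SE 0.15, adjusted p = 0.744, quantile -0.13). Ctsd was not called in either genotype. It read 8.53 and 8.78 in E12 knockout and 9.41 and 8.56 in E8.5 knockout (-0.33, SE 0.62, adjusted p = 0.736, quantile 0.48). In wild type it read 8.60 and 9.26 at E12 and 10.67 and 8.81 at E8.5 (-0.81, SE 0.62, adjusted p = 0.377, quantile 0.19). Without E8.5 wild-type replicate 1 that difference was 0.12. The E12 and E8.5 arrays of Ctsd overlapped in both genotypes.

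**Figure D3:**
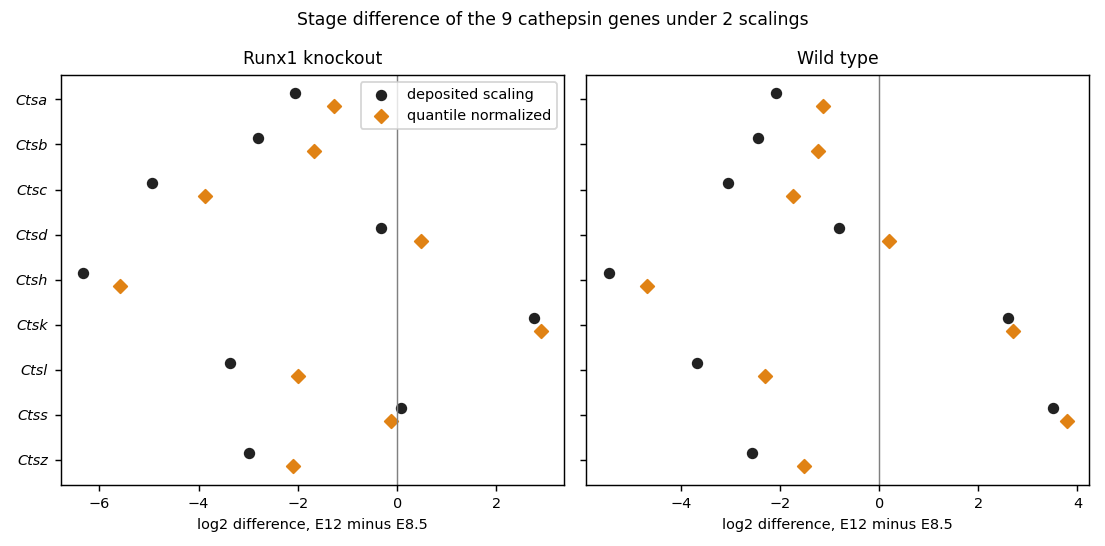
Difference in log2 intensity between E12 and E8.5 (horizontal axis) for each cathepsin gene (vertical axis) in knockout (left) and wild type (right), with circles for the deposited scaling and diamonds after quantile normalization. Ctsh lies farthest to the left in both genotypes, Ctsk to the right in both, and Ctss to the right in wild type alone (3.51, against 0.08 in knockout).

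Genes that make cathepsins work were set beside them. Of 13 genes for activation and sorting, 5 were called lower at E12 in knockout (median -0.76) and 4 in wild type (median -0.96), none higher. Over all probe sets 14.1% were called lower in knockout and 15.7% in wild type. Lgmn, the legumain protease that trims several cathepsin precursors, read 5.39 and 5.93 in E12 knockout and 11.54 and 10.71 in E8.5 knockout (-5.47, SE 0.39, limma adjusted p = 9.53e-04). In wild type it read 5.71 and 6.34 at E12 and 11.38 and 10.77 at E8.5 (-5.05, SE 0.39, adjusted p = 0.00114). Gnptab, a subunit of the enzyme that makes the mannose 6-phosphate tag, fell by 3.09 in knockout and 3.23 in wild type. Neither genotype comparison called any of the 13, with medians of -0.02 at E12 and -0.01 at E8.5. Past the t threshold was Gnptg, another subunit of that enzyme, at E8.5 (-0.58, SE 0.17).

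Calls among the inhibitors went in both directions. Of 9 measured of 12 listed, 2 were called lower and 1 higher in knockout (median 0.20) and 3 lower and 1 higher in wild type (median 0.04), beside 14.1% of all probe sets lower and 11.6% higher in knockout and 15.7% lower and 12.1% higher in wild type. Cstb, the intracellular inhibitor cystatin B, fell by 2.24 in knockout (SE 0.29) and by 2.62 in wild type (SE 0.29). None of the inhibitors was called between genotypes, with medians of 0.08 at E12 and -0.07 at E8.5.

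Other enzymes of the lysosome were also mostly lower at E12. Of 32 measured hydrolases of 36 listed, 12 were called lower and 1 higher in knockout (median -0.61), and 15 lower and 2 higher in wild type (median -0.83). Manba, lysosomal beta-mannosidase, fell by 3.04 in knockout and by 3.15 in wild type (SE 0.22 each). Neu1, the neuraminidase that Ctsa stabilizes, fell by 2.80 in knockout and by 3.20 in wild type (SE 0.30 each). Of 17 measured membrane proteins of 19 listed, 7 were called lower in knockout (median -1.10) and 6 in wild type (median -0.98), none higher. Beside these counts for both lists, 14.1% of all probe sets were called lower and 11.6% higher in knockout, and 15.7% and 12.1% in wild type. Npc1, a cholesterol transporter, gave -2.75 in knockout and -2.56 in wild type, and Lamp1, an abundant membrane glycoprotein, -2.38 and -2.36, all called. Between genotypes none of the hydrolases or membrane proteins was called by limma at either stage. At E12 the medians were -0.16 for hydrolases and -0.05 for membrane proteins, and Man2b1, an alpha-mannosidase, passed the t threshold (7.16 and 7.43 in knockout, 8.03 and 7.90 in wild type, -0.67, SE 0.21). At E8.5 the medians were -0.12 and -0.13, and Gaa, acid alpha-glucosidase, passed it (-0.72, SE 0.23).

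Cathepsins outside the 9 showed other patterns. Ctse, an aspartic protease found in gastric and immune cells and in red cells, read 7.83 and 7.84 in E12 knockout and 8.33 and 8.89 in E12 wild type (-0.77, SE 0.24, t = -3.16, limma adjusted p = 1). It rose between the stages by 2.64 in knockout and by 3.33 in wild type. Of the 5 such genes, 2 were called higher at E12 in each genotype, against 11.6% of all probe sets in knockout and 12.1% in wild type. None was called between genotypes. The rodent-specific placental cathepsins were low on most arrays, with means over 8 genes of 3.72 to 3.90. E8.5 wild-type replicate 1 was the exception at 4.87, where Cts7 read 8.64, against 3.04 to 3.73 on the other 7 arrays, and Cts8 read 6.36, against 3.38 to 3.88. The E8.5 knockout difference of Cts7 was -3.01 (SE 1.37, limma adjusted p = 1). Genes of antigen presentation by MHC class II, the pathway Ctss serves, gave no call between genotypes (6 of 7 measured, medians -0.08 at E12 and -0.07 at E8.5). These 6 were dim in E12 wild type too, from 4.07 (Cd74) to 5.14 (H2-Ab1), which leaves little room to see a fall.

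**Figure D4:**
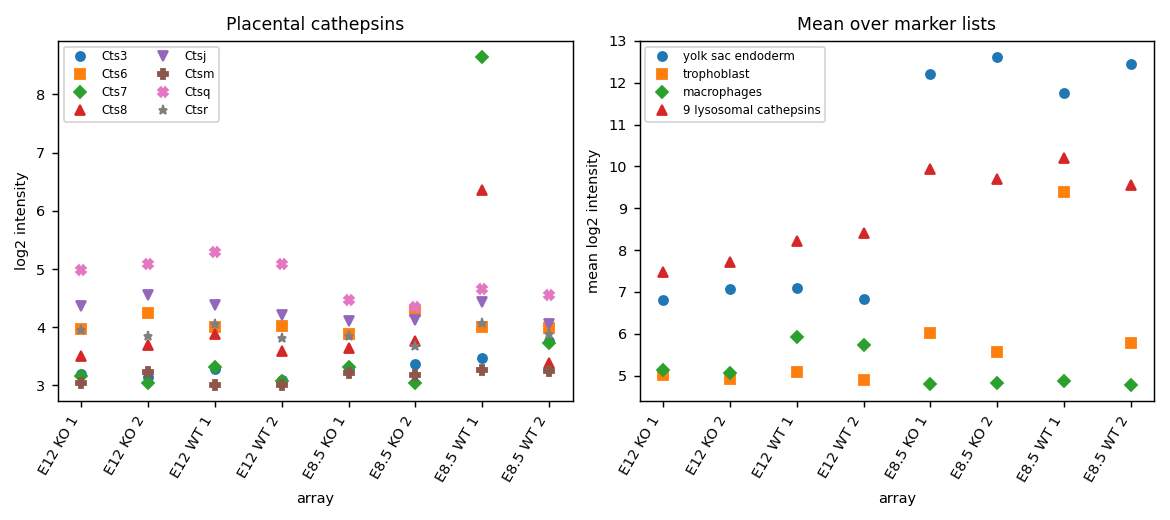
Left, log2 intensity of 8 placental cathepsins on each array. Right, mean log2 intensity over yolk sac endoderm, trophoblast and macrophage markers and over the 9 lysosomal cathepsins on each array. E8.5 wild-type replicate 1 stands out for Cts7 (8.64), Cts8 (6.36) and trophoblast markers (9.39), and yolk sac endoderm markers are at 6.81 to 7.09 at E12 and 11.75 to 12.61 at E8.5.

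The genes with the most similar profiles were sought among genes whose log2 values spanned at least 1. Likeness was the root mean square difference (RMS) over the 8 arrays after each gene was centred on its own mean, and it is a description over 8 arrays that share stage and genotype. Nearest to Ctss were Lyz1, a lysozyme (RMS 0.20), Ppbp, a platelet chemokine (0.26), and Mpo, the granulocyte peroxidase (0.26). Lyz1 read 3.72 and 3.74 in E12 knockout, against 7.39 and 6.89 in E12 wild type and 3.24 to 3.79 at E8.5. Nearest to Ctsc were Podxl, a sialomucin (0.38), Dab2, an endocytic adaptor of visceral endoderm (0.44), and Slc9a3r1 (0.45). Ctsc thus had no neighbour as near as those of the other 8 genes.

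Among the genes that fell between the stages, Ctsh was nearest to 4933402E13Rik (0.16), the glucose transporter gene Slc2a2 (0.31) and Emb (0.32). Nearest to Ctsb were Wdr36 (0.18), Npc1 (0.19) and Lamp1 (0.19), and the last of these are both genes of the lysosomal membrane. Ctsl was nearest to Jade1 (0.21), Tsr1 (0.24) and Degs1 (0.24), Ctsa to Bop1 (0.13), Sec61a1 (0.14) and Plin3 (0.14), and Ctsz to Snhg3 (0.27), Sdc4 (0.31) and Ehhadh (0.31). Nearest to Ctsk were Ntrk2 (0.12), Rsph9 (0.14) and Myl1, a muscle myosin light chain (0.19). Ctsd, whose profile was set by E8.5 wild-type replicate 1, lay nearest to Dusp1 (0.16), Asns (0.17) and Zbtb44 (0.17), 3 genes that were also highest on that array. Among pairs of cathepsins, Ctsb and Ctsz were the most alike (0.32), then Ctsa and Ctsb (0.42), Ctsa and Ctsz (0.46) and Ctsb and Ctsl (0.53).

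**Figure D5:**
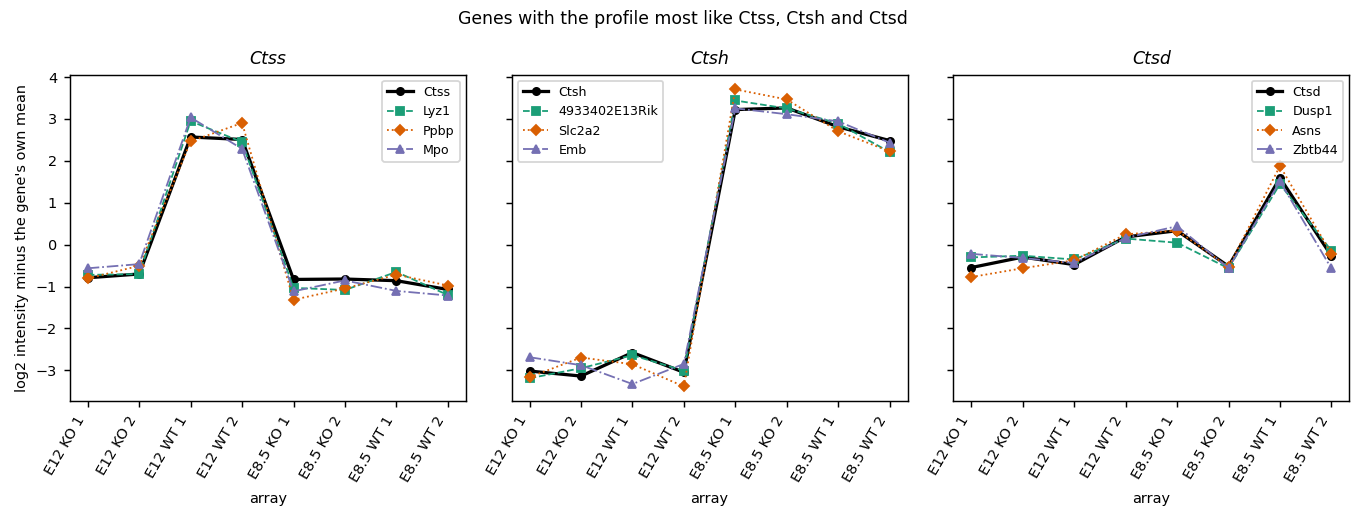
Log2 intensity minus each gene's own mean (vertical axis) on the 8 arrays (horizontal axis) for Ctss, Ctsh and Ctsd (black) and the 3 genes most like each (colours). Ctss and its neighbours are high on both E12 wild-type arrays, Ctsh and its neighbours on the 4 E8.5 arrays, and Ctsd and its neighbours on E8.5 wild-type replicate 1.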

How the data were processed

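Total RNA of 8 embryo samples, extracted with Trizol and amplified before labelling, was hybridised to 1-colour arrays. The authors ran Robust Multi-array Analysis (background correction, normalization, summary of probes) and deposited 1 linear intensity per probe set and array. Joint normalization of all arrays, software versions and detection calls were not given in the sources used here. Intensities were converted to log2 without a pseudocount. Controls (64 of 45101 probe sets) were left out. Symbols were those of the platform's gene table, brought up to date with RefSeq (GRCm38.p6), by which 34945 probe sets had 1 gene, 932 several and 9160 none named here.

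Models were fitted in R 4.3.3 by limma 3.58.1 (lmFit, eBayes), with 4 group means over 8 arrays, Benjamini-Hochberg adjustment over 45037 probe sets and a call below 0.05. An absolute t above 3, the threshold of the study's methods, was a second, uncorrected call. The fit was tested on simulated data.

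The cathepsins, the lists and the tests were chosen with earlier results of these data known. All 9 cathepsins were named. From each list came members past either threshold in a knockout comparison, up to 4, or the 1 with the highest absolute t, and at most 2 by size in a stage comparison. Macrophage genes shown with smaller differences, and Neu1 in knockout, were named outside this rule after their values were seen. Alternatives changed the scaling, an offset of 16, a filter on dim probe sets (log2 of at least 6 on 2 arrays), the arrays fitted, array weights, the prior, the block, the probe set and each array left out.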

Additional observations from a re-analysis of the deposited data

Results flagged for a closer look

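The knockout difference of Ctss changed by -3.43 on the log2 scale between the stages (E12 minus E8.5), and the test of that difference passed the adjusted threshold in limma (SE 0.21, adjusted p = 0.0381). It was drawn out because an effect of the same contrast differed between E12 and E8.5 embryos. Both E12 knockout arrays were below both E12 wild-type arrays, while at E8.5 the knockout arrays were above the wild-type arrays by a mean of 0.14. The call was lost with the filter on dim probe sets (limma adjusted p = 0.128), with the replicate block (0.211) and with a block within each stage (0.676). It was also lost in most fits with 1 array left out. The change itself stayed between -3.53 and -3.33 in those fits.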

How the results depend on the processing

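With 2 arrays a group, the number of arrays limits the precision, and the spread was unequal: differences between the arrays of a group had an SD of 0.227 in E12 knockout, 0.490 in E12 wild type, 0.403 in E8.5 knockout and 0.833 in E8.5 wild type over all probe sets, while the fit used 1 spread. The cause of each change below was not tested. Quantile normalization gave Ctsd 0.48 and Ctss -0.13 between the stages in knockout, Ctsd 0.19 in wild type and Ctsa -0.13 for the change of the knockout difference, and moved the stage medians to -1.67 in knockout and -1.24 in wild type. Centring each array on its median, chosen after seeing the data, shifted the median of all probe sets to -0.18 in knockout and -0.20 in wild type and gave Ctss -0.13 in knockout. The mean over all probe sets of a gene gave Ctsl 0.03 at E8.5, Ctsa -0.08 and Ctsb 0.13 for the change of the knockout difference (0.02 and -0.36 from the brightest probe set), and stage medians of -1.38 in knockout and -1.44 in wild type. The filter on dim probe sets kept 18974 probe sets and all 9 cathepsins, and left 0 called for the change of the knockout difference.

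Samples share only a replicate number. Replicate deviations correlated at 0.173 between E12 knockout and wild type, 0.372 at E8.5, -0.105 between the stages in knockout and 0.076 in wild type. With the replicate block Ctss at E12 had adjusted p = 0.0396, 2 probe sets were called at E12 in place of 6, and 0 cathepsins for the change of the knockout difference. A block within each stage, chosen after seeing the data, left 0 cathepsins called at E12 and 0 for that change. A replicate block on the knockout arrays alone with E12 numbers crossed, also added later, called 20477 probe sets between the stages in knockout and 7 cathepsins. Without block or crossing, the knockout arrays alone gave 19848 probe sets and the fit of all 8 arrays 11539. Fitting only the groups compared called 2 probe sets at E12, 19848 between the stages in knockout and 2061 in wild type (12525 before). Array weights gave 19889 and 7971 for these stage counts, the mean over probe sets 5603 and 6088, and the intensity trend 7 for the change of the knockout difference (2 before). That change could not be fitted in only 1 stage or genotype.

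Leaving out 1 array at a time gave 0 to 1 cathepsins called at E12, with a median of -0.61 to -0.31, and 0 at E8.5, with a median of -0.35 to 0.24. Between the stages it gave 6 to 7 in knockout (median -2.94 to -2.64) and 8 to 9 in wild type (median -2.83 to -2.02), and 0 to 2 for the change of the knockout difference, with Ctsc added without E8.5 wild-type replicate 2 (adjusted p = 0.0337). Probe sets called ran from 0 to 12 at E12, 0 to 1942 at E8.5, 2323 to 16078 between the stages in knockout, 6122 to 14204 in wild type and 0 to 718 for the change. Signs turned within these ranges: at E12 Ctsd -0.61 to 0.05 and Ctsl -0.08 to 0.52. At E8.5 they were Ctsb -0.50 to 0.27, Ctsd -1.68 to 0.18, Ctsk -0.17 to 0.43, Ctsl -0.35 to 0.20 and Ctsz -0.90 to 0.23. Between the stages Ctsd ran from -0.76 to 0.09 in knockout and from -1.74 to 0.12 in wild type. For the change, Ctsa ran from -0.22 to 0.26, Ctsb -0.75 to 0.02, Ctsd -0.46 to 1.41, Ctsk -0.13 to 0.46, Ctsl -0.01 to 0.59 and Ctsz -0.97 to 0.15.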
